A study of Mus musculus with 6 samples.

Results

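The enzymes that build long-chain fatty acids from acetyl-CoA, lengthen them and introduce double bonds into them were examined in NIH/3T3 cells after knockdown of Aldoa. The group consists of 10 genes, taken by symbol from the 18001 genes of the expression table: Acly, Acss2, Acaca, Fasn, Elovl5, Elovl6, Scd1, Scd2, Fads1 and Fads2. All 10 were found. NIH/3T3 is an immortalized mouse embryonic fibroblast line, grown here in DMEM with fetal calf serum and antibiotics. siAldoa cells received pooled siRNAs against Aldoa, which encodes the glycolytic enzyme aldolase A, and siCtrl cells received non-targeting siRNAs. Both groups received siRNA for 48 h, and the polyadenylated RNA of 3 replicates per group was sequenced. The study calls these biological replicates of a single cell line.

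Cells make fatty acids in the cytosol from citrate that leaves the mitochondria. ATP citrate lyase splits citrate to acetyl-CoA, acetyl-CoA carboxylase makes malonyl-CoA from it, and fatty acid synthase joins these units to palmitate with electrons from NADPH. Elongases and desaturases in the endoplasmic reticulum then turn palmitate and dietary fatty acids into the longer and unsaturated chains of membranes and stores. The SREBP transcription factors are the best known regulators of these genes and also drive sterol synthesis. They are bound to Scap, which Insig proteins hold in the endoplasmic reticulum, and are cut free when sterols are scarce.

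Expression is given as CPM, the reads of a gene scaled to an effective library size. The reads recovered for the 18001 genes numbered 3692341 to 3771129 per library, and 3 reads correspond to 0.786 to 0.822 CPM. Replicate 3 stood apart within each group: chi-square values per degree of freedom were 2.07 to 3.24 for pairs of libraries with replicate 3, and 1.12 (siCtrl) and 1.11 (siAldoa) for replicates 1 and 2. Values near 1 are what the sampling of reads alone gives. Replicates 1 and 2 may therefore not be fully separate, so SD, SE and p values from n = 3 may understate the uncertainty. How separately replicates 1 and 2 were grown was not tested. Per the methods, replicate 1 received spike-in RNA in the lysis buffer, and replicates 2 and 3 received it once RNA had been extracted. The effect of this difference in handling was not tested. In siAldoa, Aldoa was at 12.7% of siCtrl, and no library went against its label. Fibroblast transcripts were abundant, with summed CPM of 9 markers between 12805 and 13333 in siCtrl and between 10577 and 11257 in siAldoa. Of these 9 markers 3 fell and 4 rose, larger shares than over all genes (10.0% called lower and 10.4% higher) or genes with at least 10 CPM (16.6% and 15.9%). The 3 adipocyte markers measured (Pparg, Cfd and Fabp4) reached at most 1.59 CPM in any library and were not called. The sum over 7 markers of epithelial, endothelial and immune cells was 15.9 to 18.4 CPM in siCtrl and 6.81 to 9.99 CPM in siAldoa. Of these 7, 2 fell and 0 rose, beside 10.0% and 10.4% of all genes. The part of these markers in the results was not tested. CPM values are shares of the sequenced RNA, so fewer cells of a type and less RNA per cell cannot be told apart.

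Most genes of fatty acid synthesis and desaturation were lower after Aldoa knockdown. The two-sided test was limma on log2(CPM + 1), p values were adjusted by Benjamini-Hochberg over all 18001 genes, and a gene was called at an adjusted p under 0.05. Fold changes are on that log2 scale and are therefore understated for genes of low CPM. 7 of the 10 genes fell and 0 rose, where 10.0% of all genes were called lower and 10.4% higher. Also 0 of the 10 were higher at an unadjusted p under 0.05, and edgeR and DESeq2 called 0 higher as well. Among the 10059 genes with a mean of at least 10 CPM, which include all 10 enzymes, 16.6% were called lower and 15.9% higher. In 8 of the 10 genes every siAldoa library lay below every siCtrl library, which held for 17.1% of all genes and for 23.8% of the genes with at least 10 CPM. In 0 of the 10 every siAldoa library lay above, beside 16.7% of all genes and 22.9% of the genes with at least 10 CPM. The median log2 fold change was -0.28 over the 10 genes and 0.00 (-0.0023) over all genes. The sizes varied: Elovl6 and Fads2 were at 63.2% and 66.2% of siCtrl, Scd2, Fads1, Elovl5, Acly and Acaca between 80.0% and 89.3%, and Fasn at 99.4%. The CPM of all 10 summed to 3445, 3480 and 3314 in siCtrl and to 2813, 2920 and 2833 in siAldoa, 83.7% of the control.

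**Figure D1:**
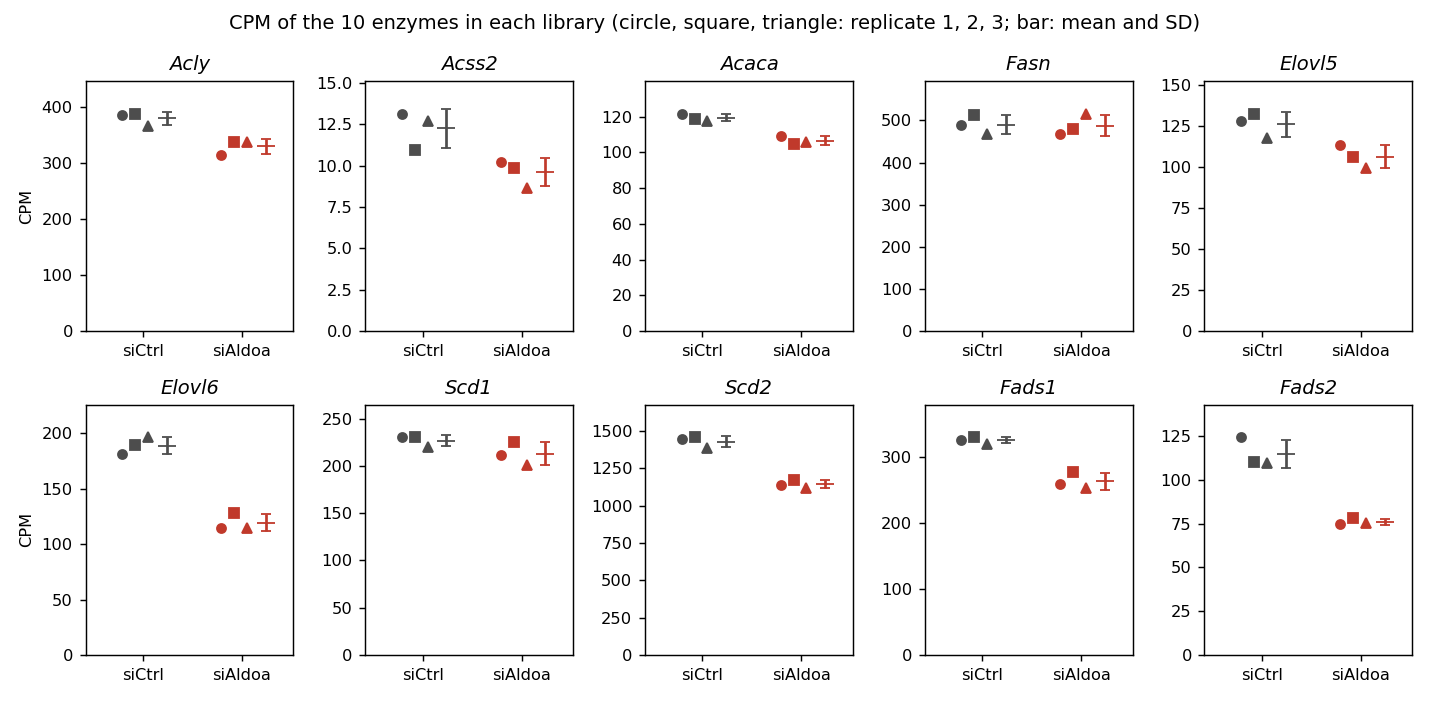
CPM of each of the 10 enzymes in the 3 siCtrl and 3 siAldoa libraries, with a symbol per replicate and bars for the mean and SD. In 8 panels all siAldoa points lie below all siCtrl points, while those of Fasn and Scd1 overlap.

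The sequence before the transcription start is shown for 3 of the enzymes that act in different steps and differed in response: Acly (fell slightly), Fasn (difference nearest to 0) and Elovl6 (largest fall). The sequences are from RefSeq on GRCm38.p6 and are read 5′ to 3′ on the strand of the gene, from chr11:100528001-100528250 on the minus strand for Acly, chr11:120824548-120824797 on the minus strand for Fasn and chr3:129532136-129532354 on the plus strand for Elovl6. Capitals mark GC boxes (GGGCGG) and CCAAT boxes (CCAAT) on either strand, and overlapping matches run together.
Acly: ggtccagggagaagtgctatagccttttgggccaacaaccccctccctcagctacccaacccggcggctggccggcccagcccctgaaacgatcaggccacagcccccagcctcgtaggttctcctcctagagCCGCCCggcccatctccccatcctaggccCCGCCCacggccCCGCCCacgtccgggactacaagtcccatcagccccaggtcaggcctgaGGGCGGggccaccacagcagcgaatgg
Fasn: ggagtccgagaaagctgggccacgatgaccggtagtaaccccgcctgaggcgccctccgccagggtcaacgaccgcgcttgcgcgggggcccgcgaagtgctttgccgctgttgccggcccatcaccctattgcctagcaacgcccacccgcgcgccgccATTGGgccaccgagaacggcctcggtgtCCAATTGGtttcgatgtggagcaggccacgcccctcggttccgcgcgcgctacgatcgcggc
Elovl6: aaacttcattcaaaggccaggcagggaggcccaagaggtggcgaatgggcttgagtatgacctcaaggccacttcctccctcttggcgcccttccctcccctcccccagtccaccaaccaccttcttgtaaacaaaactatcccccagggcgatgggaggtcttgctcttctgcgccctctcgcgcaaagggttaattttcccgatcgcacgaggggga

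The 3 stretches hold different letters of this kind. Acly has GC boxes only, Fasn has CCAAT boxes only, and Elovl6 has neither. RefSeq promoters could be matched for 7 of the 10 enzymes, which leaves Scd1, Scd2 and Fads1. In the 250 bases before the RefSeq start, both strands were searched for 5 motifs. The CCAAT box was found for Acss2, Elovl5 and Fasn, the GC box for Acly, Acss2 and Fads2, and the E-box CACGTG, a site of Usf and Mlx proteins, for Elovl5. They occur in 33.8%, 32.7% and 6.02% of all 32851 promoters. The core of the sterol regulatory element (TCACNCCAC), to which SREBP proteins bind, was found in 0 of the 7 and in 1.05% of all promoters, and the direct repeat bound by LXR (DR4) in 0 of the 7 and in 0.0152% of all. No match says only that these letters are absent from these windows. By the GENCODE annotation, exons of the gene cover 243 bases of the Fads2 window, 95 of the Acss2 window, 31 of the Elovl6 window and 1 of the Elovl5 window, and the Acaca window lies wholly within the gene, so these windows are not all before the outermost annotated start. The CCAAT box and a GC box of Acss2 and the GC box of Fads2 lie in these exon stretches, and the Elovl6 sequence above ends before its exon bases.

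Of the 3 enzymes that supply acetyl-CoA and malonyl-CoA, Acly and Acaca fell by small amounts and Acss2 was not called. Acly, ATP citrate lyase (ENSMUSG00000020917, chr11:100476353-100528000, minus strand, GRCm38), was at 385, 387 and 366 CPM in siCtrl replicates 1, 2 and 3 and at 314, 337 and 337 CPM in siAldoa. No siAldoa value reached the siCtrl range. The means were 379 ± 11.5 and 329 ± 13.7 CPM (SD, n = 3), a log2 fold change of -0.20 (SE 0.042, limma adjusted p = 0.00093).

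Acaca (ENSMUSG00000020532, chr11:84129672-84401651, plus strand) encodes acetyl-CoA carboxylase 1, which makes malonyl-CoA in the cytosol. It was at 122, 119 and 118 CPM in siCtrl and at 109, 105 and 106 CPM in siAldoa. The groups did not overlap and each was narrow. The log2 fold change was -0.16 (SE 0.055, limma adjusted p = 0.039), with means of 119 ± 2.02 and 107 ± 2.48 CPM (SD, n = 3). This call was close to the threshold and was lost whichever single library was left out, with limma adjusted p values from 0.053 to 0.12. A transcript of the pseudogene Gm5182, not analysed here, is 99.2% identical to Acaca over 6118 bases, so the reads of Acaca are uncertain to that extent.

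Acss2 (ENSMUSG00000027605, chr2:155517948-155585724, plus strand), which makes acetyl-CoA from acetate, was the enzyme with the fewest reads (33 to 48 per library). It was at 13.1, 10.9 and 12.7 CPM in siCtrl and at 10.3, 9.89 and 8.64 CPM in siAldoa. The siAldoa libraries were again all lower, but the difference was not larger than the uncertainty at this depth: the log2 difference was -0.32 (95% interval -0.68 to 0.03, limma adjusted p = 0.21). The gene overlaps Gss on the opposite strand over 22544 bases. The libraries were made with a directional kit, but the use of strand in counting is not given in the sources used here. Reads of the overlap may therefore belong to either gene or may have been counted for neither. Gss itself had 3 to 10 reads per library.

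Fasn (ENSMUSG00000025153, chr11:120805846-120824547, minus strand) encodes fatty acid synthase, the enzyme that assembles palmitate. It was at 489.7, 513 and 467 CPM in siCtrl and at 467, 478 and 516 CPM in siAldoa. The groups overlapped throughout, and the highest of all values was a siAldoa library. The means were 490.0 ± 22.7 and 487 ± 25.4 CPM (SD, n = 3). The log2 difference was -0.01 with a 95% interval of -0.10 to 0.08 (limma adjusted p = 0.92), and its sign turned to 0.01 when CPM was scaled to total reads and to 0.10 after quantile normalisation. With 1732 to 1970 reads per library, Fasn was more deeply covered than 8 of the other enzymes, and the interval covers neither the fall of Acly nor that of any desaturase called below.

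**Figure D2:**
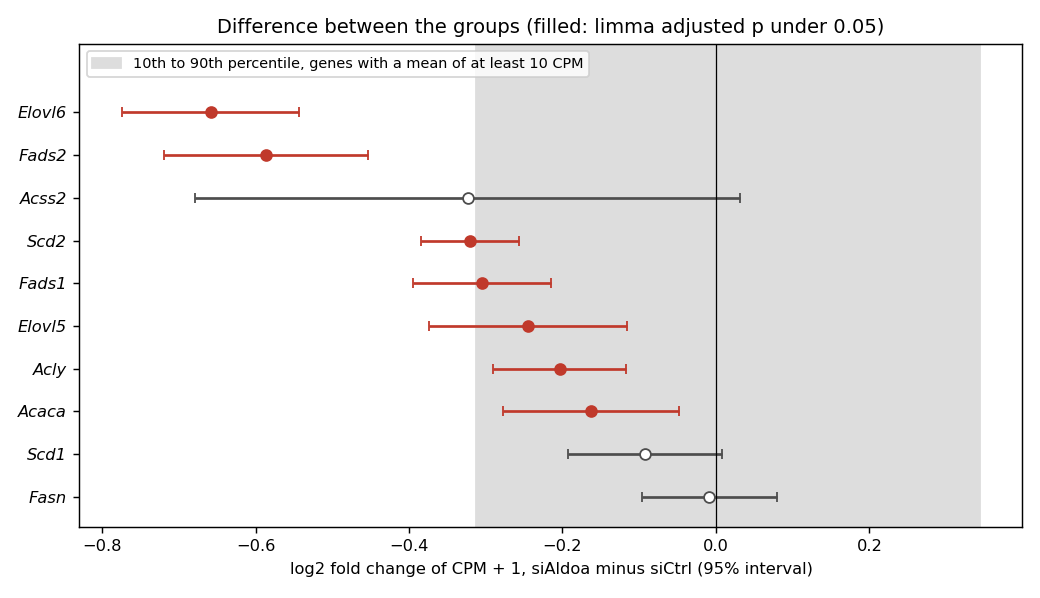
Log2 fold change (siAldoa minus siCtrl, log2(CPM + 1)) of the 10 enzymes with 95% intervals from limma. Elovl6 (-0.66) and Fads2 (-0.59) lie farthest from 0, and the intervals of Fasn, Scd1 and Acss2 include 0.

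Both elongases fell. Elovl6 (ENSMUSG00000041220, chr3:129532355-129638495, plus strand), which extends palmitate and palmitoleate to stearate and vaccenate, showed the largest fall of the 10. Its CPM was 181, 189 and 196 in siCtrl and 115, 128 and 115 in siAldoa. The highest siAldoa library was far below the lowest siCtrl library. The means were 189 ± 7.64 and 119 ± 7.70 CPM (SD, n = 3), 63.2% of the control, with a log2 fold change of -0.66 (SE 0.056, limma adjusted p = 6.2e-09). Ordered from the lowest log2 fold change, Elovl6 was at rank 280 of 18001 genes. The processed copy Gm11295 is 97.4% identical to Elovl6 over 805 bases, and its own 13 to 24 reads per library were few beside the 426 to 742 of Elovl6.

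Elovl5 (ENSMUSG00000032349, chr9:77917364-77984519, plus strand) elongates polyunsaturated fatty acids. Its values were 128, 132 and 118 CPM in siCtrl and 113, 106 and 99.2 CPM in siAldoa. The groups were separate, but the lowest siCtrl library and the highest siAldoa library were near each other. The log2 fold change was -0.24 (SE 0.062, limma adjusted p = 0.0059), with means of 126 ± 7.48 and 106 ± 6.92 CPM (SD, n = 3). Without siCtrl replicate 2 the call was lost (log2 fold change -0.21, limma adjusted p = 0.063), and likewise without siAldoa replicate 3 (-0.20, limma adjusted p = 0.064).

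Of the 4 desaturases, the Δ9 enzyme Scd2 and the front-end enzymes Fads1 and Fads2 fell, and Scd1 was not called. Scd1 and Scd2 are stearoyl-CoA desaturases, which turn stearate and palmitate into oleate and palmitoleate. Scd2 (ENSMUSG00000025203, chr19:44293674-44306864, plus strand) was at 1446, 1458 and 1385 CPM in siCtrl and at 1137, 1174 and 1121 CPM in siAldoa. These were the most reads of any of the 10 enzymes, 4215 to 5328 per library, and the groups were far apart. Means were 1429 ± 39.2 and 1144 ± 27.5 CPM (SD, n = 3), and the log2 fold change was -0.32 (SE 0.031, limma adjusted p = 5.3e-08).

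Scd1 (ENSMUSG00000037071, chr19:44394455-44407879, minus strand) was at 230.1, 230.1 and 220.1 CPM in siCtrl and at 212, 225 and 201 CPM in siAldoa. siAldoa replicate 2 lay above the lowest siCtrl library. The log2 difference was -0.09 (95% interval -0.19 to 0.01, limma adjusted p = 0.2). Scd1 and Scd2 lie in the same cluster, with 114205 bases between their starts. Transcripts of Scd2 and Scd1 are up to 95.5% identical over 623 bases, and those of Scd1 and Scd3 90.4% over 1084 bases, so the split of reads between these genes depends on how reads with several positions were treated.

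Fads1 and Fads2 encode the Δ5 and Δ6 desaturases, which act with Elovl5 on the way from linoleic and α-linolenic acid to arachidonic and eicosapentaenoic acid. Fads2 (ENSMUSG00000024665, chr19:10062765-10101746, minus strand) was at 124, 110.5 and 109.8 CPM in siCtrl and at 74.8, 78.0 and 75.4 CPM in siAldoa. The siAldoa libraries were close together and all well below the controls. The means were 115 ± 8.20 and 76.1 ± 1.74 CPM (SD, n = 3), 66.2% of the control, and the log2 fold change was -0.59 (SE 0.064, limma adjusted p = 3.2e-07), at rank 459 from the lowest.

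Fads1 (ENSMUSG00000010663, chr19:10182888-10196877, plus strand) starts 81142 bases from Fads2 and is read in the opposite direction. It was at 326, 330.5 and 321 CPM in siCtrl and at 260.2, 278 and 253 CPM in siAldoa. No siAldoa library reached the control range. The log2 fold change was -0.30 (SE 0.043, limma adjusted p = 1.3e-05), with means of 326 ± 4.79 and 264 ± 12.7 CPM (SD, n = 3).

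When the libraries were left out one at a time, Elovl6 (log2 fold change -0.71 to -0.63), Fads2 (-0.62 to -0.53), Fads1 (-0.34 to -0.28), Scd2 (-0.34 to -0.31) and Acly (-0.23 to -0.17) were called each time. Without replicate 3 of both groups, the libraries that stood apart, Elovl6, Fads1, Fads2 and Scd2 were called lower, the same 4 enzymes as without replicate 1 or without replicate 2.

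The levels of the enzymes in control cells were compared as CPM per kb of annotated exon. Scd2 was the highest by far in siCtrl, at 262 ± 7.17 CPM per kb (SD, n = 3). Acly (71.9 ± 2.18) and Fads1 (67.7 ± 0.995) followed, and their libraries did not overlap. Next came Scd1 (46.4 ± 1.17) and Fasn (44.8 ± 2.07), which did not differ beyond their spread, and then Elovl5 (35.8 ± 2.12) and Fads2 (34.9 ± 2.49), which also overlapped. Elovl6 stood at 29.4 ± 1.19 CPM per kb, below all libraries of Fads2. Acaca (6.99 ± 0.118) and Acss2 (1.21 ± 0.115) were the lowest on this scale, which divides by all annotated exons (17074 and 10163 bases) and so lowers genes with many alternative exons. In siAldoa, Scd2 was at 209, Elovl6 at 18.6 and Fads2 at 23.1 CPM per kb.

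**Figure D3:**
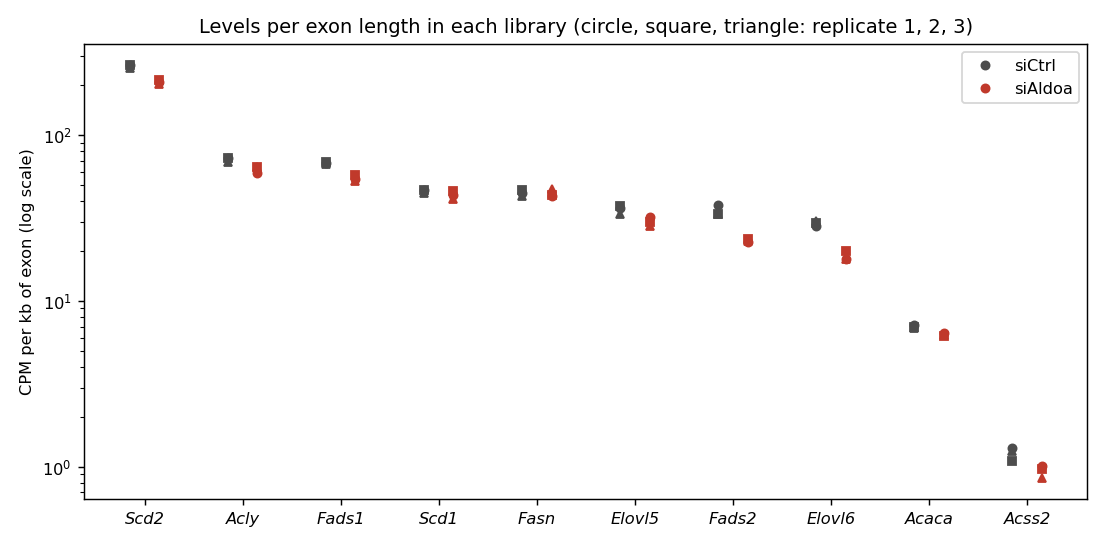
CPM per kb of annotated exon of the 10 enzymes in siCtrl and siAldoa libraries, on a log axis. Scd2 is the highest in both groups (262 and 209 CPM per kb on average) and Acss2 the lowest (1.21 and 0.944).

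Ratios within a library were compared for 4 pairs of related enzymes, with a two-sided exact permutation test. The pairs were chosen with earlier results of these data known, and with 3 libraries per group p cannot go below 0.1, so the ratios are a description. Scd1 was 15.8% to 15.9% of Scd2 in siCtrl and 18.0% to 19.2% in siAldoa, a difference of 0.23 in the log2 ratio (exact p = 0.1, 0.13 after adjustment over the 4 ratios). The siCtrl libraries were nearly equal and all siAldoa libraries were higher. The log2 ratio of Elovl6 to Elovl5 was 0.59 ± 0.13 in siCtrl and 0.17 ± 0.13 in siAldoa (SD, n = 3, exact p = 0.1, adjusted 0.13). That of Fads1 to Fads2 was 1.51 ± 0.10 and 1.79 ± 0.042 (SD, n = 3, exact p = 0.1, adjusted 0.13). In both ratios the groups did not overlap, and in siAldoa the ratios were on the side of Elovl5 and Fads1. The log2 ratio of Acss2 to Acly differed by -0.15 and overlapped (exact p = 0.3, adjusted 0.3).

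**Figure D4:**
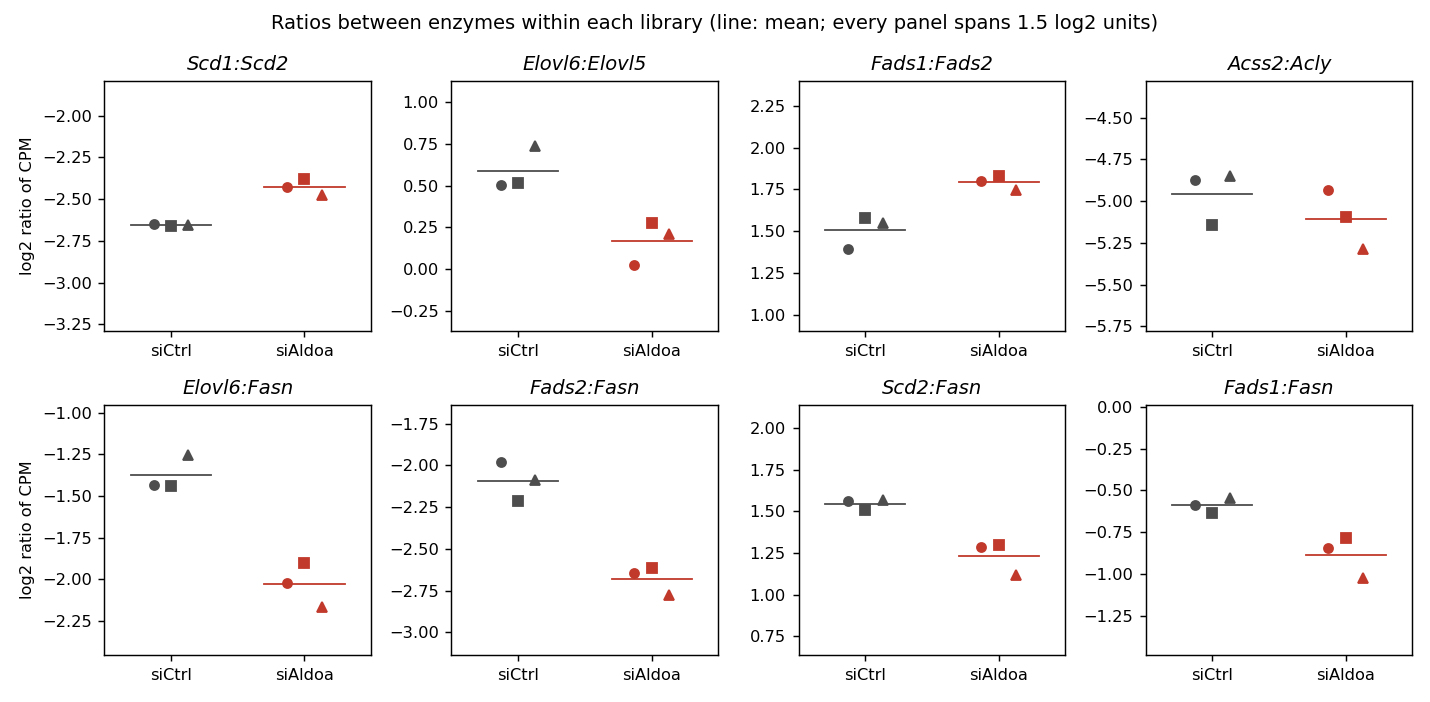
Log2 ratios of CPM between enzymes in each library, with lines for the means (upper row: paralogs or enzymes of the same step; lower row: ratios to Fasn). The siCtrl and siAldoa points are apart for Scd1 to Scd2, Elovl6 to Elovl5 and Fads1 to Fads2 and for the 4 ratios to Fasn, and overlap for Acss2 to Acly.

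Within the gene families measured, on the per kb scale, Scd2 made up 84.2% ± 0.137 of Scd1 to Scd4 in siCtrl and 81.8% ± 0.417 in siAldoa (SD, n = 3), and Scd1 14.9% ± 0.0416 and 17.0% ± 0.478. The other two genes stayed below 1% on average. Fads2 made up 24.2% to 26.6% of Fads1 to Fads3 in siCtrl and 20.7% to 21.4% in siAldoa, and Fads3, whose enzyme acts on sphingoid bases, 26.0% ± 0.319 and 29.2% ± 0.897. The level of Fads3 itself was lower in siAldoa (log2 fold change -0.17, limma adjusted p = 0.027, up to 0.08 without a single library), a gene named after its values were seen, and its share was larger because Fads1 and Fads2 were lower by more. Relative to Fasn in the same library, Elovl6 was at 37.0%, 36.9% and 42.0% in siCtrl and at 24.6%, 26.8% and 22.3% in siAldoa, and Fads2 at 25.4%, 21.5% and 23.5% against 16.0%, 16.3% and 14.6%. These ratios to Fasn were chosen after the values were seen and were not tested.

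Among the SREBP factors and the proteins that process them, 3 of 8 genes fell and 1 rose, beside 16.6% of genes with at least 10 CPM called lower and 15.9% higher. The median log2 fold change of the 8 was -0.01. Srebf1, whose product is linked mainly to fatty acid synthesis, was at 58.1, 47.9 and 53.4 CPM in siCtrl and at 46.4, 48.1 and 59.96 CPM in siAldoa. These ranges overlapped (log2 difference -0.05, limma adjusted p = 0.79), and the sign turned without single libraries. Srebf2, linked mainly to sterol synthesis, was at 351, 324 and 327 CPM in siCtrl and at 259, 252 and 276 CPM in siAldoa, without overlap (log2 fold change -0.35, SE 0.046, limma adjusted p = 4.3e-06). Insig1, which retains SREBP proteins and is itself one of their targets, was at 156, 173 and 166 CPM in siCtrl and at 106, 113 and 115 CPM in siAldoa (log2 fold change -0.56, limma adjusted p = 9.4e-08). Mbtps1, the site-1 protease, fell by 0.25 on the log2 scale (limma adjusted p = 0.00049). Scap rose from a mean of 69.7 to 81.6 CPM with overlapping libraries (limma adjusted p = 0.033, up to 0.19 without a single library), and Insig2 was not called (0.14, limma adjusted p = 0.42).

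Of 13 other transcription factors known to act on such genes, 1 fell and 4 rose, beside 16.6% of genes with at least 10 CPM called lower and 15.9% higher. The median log2 fold change of the 13 was 0.10. The LXRβ gene Nr1h2 was at 40.8, 36.1 and 35.2 CPM in siCtrl and at 52.6, 55.1 and 53.2 CPM in siAldoa, all siAldoa libraries being higher (log2 fold change 0.51, limma adjusted p = 9.8e-05). Rxrb, a partner receptor of LXR, rose by 0.43 on the log2 scale (limma adjusted p = 0.0011) and Usf1, which binds E-boxes, by 0.40 (limma adjusted p = 0.0074, but 0.082 without siAldoa replicate 1). For the glucose-responsive factors, Mlxip was not called (0.09, limma adjusted p = 0.35), and Mlxipl, which encodes ChREBP, had 0 or 1 read in each library. Of 4 measured LXR targets, 0 fell and 1 rose, beside 10.0% of all genes called lower and 10.4% higher. The called target was Mylip (0.91, limma adjusted p = 0.00012), and 1 of the 4 stayed below 1 CPM in every library. A count this small is not read as a result about LXR targets.

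Of 7 genes of citrate export and NADPH supply, which feed Acly and fatty acid synthase, 1 fell and 3 rose, beside 16.6% of genes with at least 10 CPM called lower and 15.9% higher. Their median log2 fold change was 0.00 (-0.0032). Citrate synthase, Cs, rose by 0.22 (limma adjusted p = 6.6e-05). The citrate carrier Slc25a1 fell by 0.24 (limma adjusted p = 0.035) and Idh1, a cytosolic source of NADPH, rose by 0.29 (limma adjusted p = 0.011), but with single libraries left out these reached adjusted p values of up to 0.27 and 0.12. Of 8 relatives of the enzymes for acetyl-CoA and malonyl-CoA, 1 fell, a share near that of all genes (10.0%). This was Aacs (-0.44, limma adjusted p = 2.4e-06), which activates acetoacetate for lipid synthesis.

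For the partners of elongases and desaturases, called genes are given beside the 16.6% of genes with at least 10 CPM that were called lower and 15.9% higher. Of 7 other genes of elongation, 2 fell: Elovl1, an elongase of saturated very long chains (-0.37, limma adjusted p = 0.00011), and Hsd17b12, the ketoacyl-CoA reductase of the elongation cycle (-0.25, limma adjusted p = 0.00023). Of 9 other desaturases and electron donors, 4 fell and 1 rose. Among these were Cyb5b, a form of cytochrome b5 (466, 436 and 421 CPM in siCtrl and 358, 339 and 340 CPM in siAldoa, log2 fold change -0.35, limma adjusted p = 1.5e-06), and the cytochrome b5 reductases Cyb5r1 (-0.40, limma adjusted p = 1.2e-05) and Cyb5r3 (-0.23, limma adjusted p = 0.0002). In Cyb5b the groups were far apart. Cyb5a, the other form of cytochrome b5 in the list, was not called (log2 difference 0.02, limma adjusted p = 0.93). Cyb5a was named after its values were seen. Cytochrome b5 carries electrons to the desaturases, but which form does so here was not tested. The fall of Cyb5b is therefore not read as a fall of their electron carrier. The medians of the elongation and desaturation lists were -0.06 and -0.05.

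For the genes that use fatty acids and those of mitochondrial fatty acid synthesis, called counts are given beside the shares of all genes called (10.0% lower and 10.4% higher, or 16.6% and 15.9% of genes with at least 10 CPM). Counts this small are not read as a result about a list. Of 9 acyl-CoA synthetases and transporters 2 fell and 2 rose, and the transporter Slc27a1 showed the largest change, from 9.59, 9.30 and 7.94 CPM in siCtrl to 23.5, 21.9 and 19.6 CPM in siAldoa (log2 fold change 1.19, limma adjusted p = 3.4e-06). Slc27a4 rose by 0.36 (limma adjusted p = 0.023, up to 0.1 without a single library) and Acsl3 fell by 0.32 (limma adjusted p = 0.0038). Glycerolipid synthesis had 2 lower and 1 higher of 10 genes, among them Gpat4 (-0.22, limma adjusted p = 0.005), lipid droplets and fatty acid binding 1 lower (Fabp5, -0.33, limma adjusted p = 0.00019) and 1 higher of 9, mitochondrial fatty acid synthesis 1 lower of 5, and mitochondrial fatty acid oxidation 2 lower (Echs1, -0.41, limma adjusted p = 0.0012, and Acadl, -0.38, limma adjusted p = 0.00085) and 1 higher of 17. Their medians lay between -0.09 and 0.11.

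Sterol synthesis, the other pathway under SREBP control, served as the comparison. This list, like the others, was chosen with earlier results of these data known. Of its 18 measured genes 16 fell and 0 rose, beside 10.0% of all genes called lower and 10.4% higher. Of the genes with at least 10 CPM these shares were 16.6% and 15.9%. The median log2 fold change of the 18 was -0.53, beside -0.28 for the fatty acid enzymes. Hmgcs1, the synthase at the start of the mevalonate pathway, was at 479, 504 and 473 CPM in siCtrl and at 233, 246 and 230 CPM in siAldoa (log2 fold change -1.04, limma adjusted p = 2.5e-14), and Idi1 fell by 0.75 (limma adjusted p = 3.6e-10). The fall of Elovl6 (-0.66, 95% interval -0.77 to -0.54) was larger than the sterol median, the interval of Fads2 (-0.72 to -0.45) covered it, and the log2 fold changes of the other called enzymes were nearer to 0. No test of the difference between the lists was made.

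**Figure D5:**
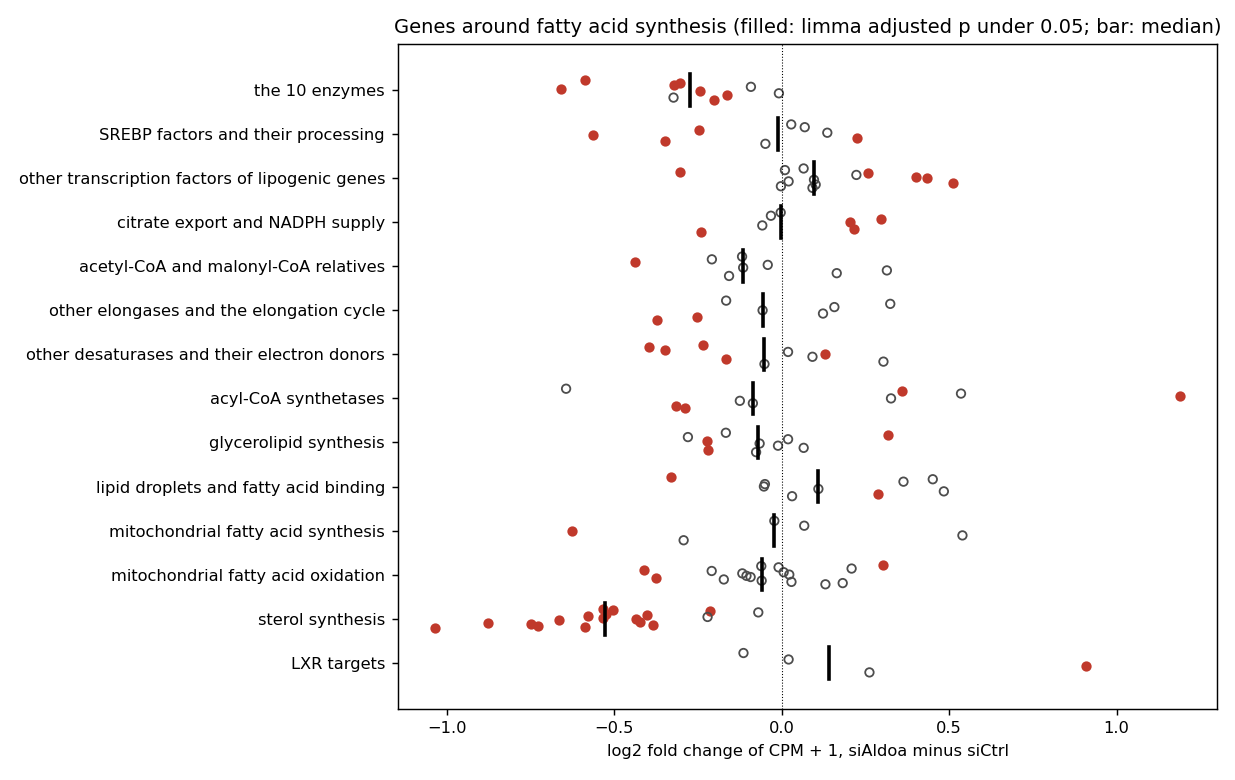
Log2 fold change of each measured gene in the lists of related genes, with filled points for called genes and a bar for the median of each list. Sterol synthesis (median -0.53) and the 10 fatty acid enzymes (median -0.28) lie lowest among the lists of lipid genes, and the other lists of lipid genes and their regulators have medians between -0.12 and 0.14.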

How the data were processed

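NIH/3T3 libraries of poly(A) RNA were compared between siAldoa and siCtrl (3 per group, groups from the labels). Per the labels, the authors used mm10 and Bowtie2 (version 2.2.7), and the methods add subsampling to equal read numbers and counting per gene. The library kit was directional. The annotation release and the use of strand in counting are not given in the sources used here. The deposited values are CPM of an effective library size (18001 genes). All were whole multiples of the value of 1 read (100%, tolerance 0.01 reads), so reads were recovered. Precision from reads covers counting error only, as reads carry no molecular identifiers. The authors' own comparison (log2 fold changes and p-values) was not used.

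CPM + 1 was log2-transformed (pseudocount 1) and tested with limma (version 3.58.1, R version 4.3.3, mean-variance trend). edgeR (version 4.0.16) and DESeq2 (version 1.42.0) on recovered reads, other scalings, a pseudocount of 0.1, a filter on low values, no trend, the replicate block and libraries left out were alternatives. Scaling to total reads was added after seeing the data. The tests were tried on simulated data in which 200 of 18001 genes changed by 1 on the log2 scale. Of these, 87.5% were recovered by limma, with 2 false calls. The largest change among the enzymes was smaller (Elovl6, -0.66), so the trial does not show recovery at their sizes. Single ratios were tested with scipy (version 1.17.1). Exon lengths, overlaps and positions are from GENCODE on GRCm38 (17932 of 18001 identifiers matched), and blastn (version 2.17.0) was used to find similar transcripts.

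The members and all lists were chosen with earlier results of these data known. Named were all members, Aldoa, 8 regulators (Srebf1, Srebf2, Scap, Insig1, Insig2, Mlxip, Mlxipl and Nr1h2) and from each other list up to 3 called genes with the largest fold change, of which not all are reported.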

Additional observations from a re-analysis of the deposited data

How the results depend on the processing

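Elovl6, Fads2 and Scd2 were called lower under all 19 alternatives and Fads1 under 18, the exception being the fit with no mean-variance trend (adjusted p = 0.055). Acly lost its call in 4, Elovl5 in 6 and Acaca in 14 of the 19, and 0 of the 10 enzymes were called higher in any. The 19 include a scaling by the TMM method of edgeR, which returned the main log2 fold changes (largest difference 0). It was therefore no separate check. The count of enzymes called lower was 3 with no trend and 4 to 6 with libraries left out. It was 6 with DESeq2, with scaling to total reads, with the replicate block and with replicates 1 and 2 averaged, where Acaca lost its call. Over all genes, 616 were lower and 824 higher with no trend, 1117 and 1066 with DESeq2, and 520 to 1371 and 494 to 1464 with libraries left out, the fewest without replicate 3 of both groups. The replicate numbers are not shown to pair replicates 1 and 2 across the groups. For replicates 1, 2 and 3 the deviations from the group means correlated at 0.030, 0.014 and 0.134 across 10059 genes, which are not independent replicates. siCtrl replicate 2 correlated better with siAldoa replicate 1 (0.074) than with its own number. The value of replicate 3 was the highest, and each replicate 3 correlated at -0.094 to -0.046 with replicates 1 and 2 of the other group. Whether both groups share a difference of replicate 3 was not tested. The block gave 1559 genes lower and 1611 higher, and Acaca an adjusted p of 0.059. The sign of the log2 difference turned for Fasn with scaling to total reads (0.015), quantile normalisation (0.097) and replicates 1 and 2 averaged (0.029), for Srebf1 (0.0009) and Scd3 (0.0825) with the same averaging, and for Mlxipl with scaling to total reads (0.0003). With libraries left out it ranged from -0.084 to 0.037 for Fasn, -0.16 to 0.085 for Srebf1, -0.12 to 0.11 for Mlxipl, -0.31 to 0.28 for Scd3 and -0.39 to 0.027 for Gss. The 4 ratios kept their direction in every alternative. The causes of these changes were not tested. Depth limits Acss2, Scd3, Gss and Mlxipl, which had few reads.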
